A study of Sparus aurata with 16 samples.

Results

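PKL and PKM are the array sequences that carry the names of the liver and muscle types of pyruvate kinase. They were chosen by name, as every non-control spot listed as PKL or PKM in the scanner output, which gave 2 of the 25225 sequences of the array, 4 of its 49373 probes and 8 of its 61657 non-control spots. Each sequence had 2 probes, and each probe was spotted 2 times per array. All 4 probes were used in both tissues, and none was removed by a filter on low values. Probes 1 and 2 of a sequence are given in the order of their probe numbers.

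The fish were juveniles of gilthead sea bream, Sparus aurata, kept for 23 days without food (starved) or fed once a day with 25 g/kg body weight of diet LLH, MHL or HLL. The letters of a diet's name give its protein, lipid and carbohydrate level in that order (H, high; M, medium; L, low), so that LLH was the diet high in carbohydrates and HLL the diet high in protein. Liver and white skeletal muscle of 4 fish per group were measured on 16 two-colour arrays, 8 per tissue, each array holding the labelled RNA of 1 fish in Cy5 and of 1 fish of another group in Cy3. Arrays paired starved with LLH, starved with HLL, MHL with HLL and LLH with MHL fish, 2 arrays per pair and tissue, and each group had 2 fish in each dye. The Cy5 fish of 1 liver array, which shared that array with starved fish 1, was HLL fish 1 by its title but LLH by its source label. It was taken as HLL, and the results of PKL and PKM that change without that array are given with it left out. All liver arrays lay on 1 slide and all muscle arrays on another, so that tissue and slide cannot be told apart, while each slide held all 4 groups. The identifiers of the array carry no annotation apart from 8 gene symbols, so the tissue labels were not checked against marker genes.

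Pyruvate kinase catalyses the last step of glycolysis, in which phosphoenolpyruvate is converted into pyruvate and ATP is formed. In mammals one gene (PKLR) encodes the forms of liver and red blood cells, and another (PKM) encodes the M1 form of muscle and brain and the M2 form found in many other tissues. The mammalian liver form is known as a controlled step of hepatic glycolysis, which insulin and dietary carbohydrate favour and which glucagon and fasting restrain. The RefSeq annotation of the sea bream genome lists pklr and 2 genes named pkma and pkmb, and the array names PKL and PKM were not paired with these here.

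PKL was well above the background in the liver, less so in the muscle, and PKM was close to the background in both tissues. Of all spots on the arrays, 57.9 to 66.6% per liver channel and 56.0 to 65.3% per muscle channel passed as well above background, and none was saturated. In the liver all 32 readings of PKL probe 1 and all 32 of PKL probe 2 were well above background (2 spots in each of 16 fish), at a median of 25.1 and 18.1 times the local background. In the muscle all 32 readings of PKL probe 1 were still well above background, at a median of 4.63 times the local background, but only 18 of 32 readings of PKL probe 2 were, at a median of 1.26 times. PKM probe 1 was well above background in 28 of 32 liver readings and in all 32 muscle readings, but at medians of only 1.54 times the local background in the liver and 1.60 times in the muscle. PKM probe 2 passed in 1 of 32 liver readings, from an LLH fish, and in 7 of 32 muscle readings. The probes named for the muscle isozyme were thus dim in white muscle too. The offset of 50 added in the background correction shrinks differences of such dim probes.

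**Figure D1:**
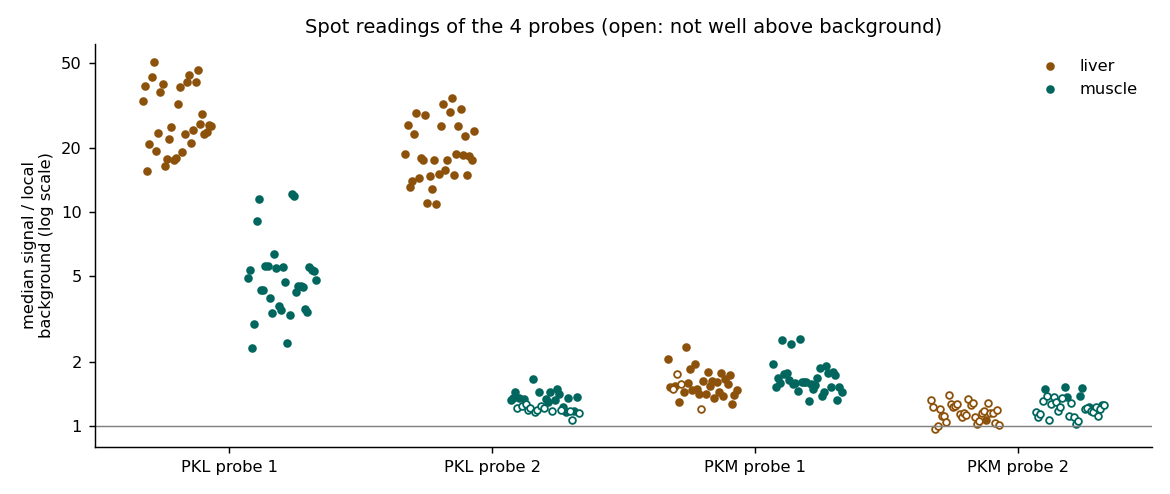
Median signal of each spot divided by its local background (log axis) for the 4 probes, with liver left and muscle right for each probe and 1 point per spot and channel (32 per probe and tissue); open points were not well above background. PKL probe 1 lay above the background in both tissues, and PKL probe 2 only in the liver by a wide margin. PKM probe 2 lay close to 1 in both tissues, and PKM probe 1 had medians of 1.54 (liver) and 1.60 (muscle).

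In the liver, PKL was lower in starved fish than in fish of any diet group. On the normalised log2 intensity scale, PKL in the liver had 9.17, 9.68, 9.56 and 9.39 in starved fish 1 to 4. Fish fed LLH had 9.84, 10.37, 10.59 and 10.52, fish fed MHL had 10.48, 10.16, 10.45 and 9.76, and fish fed HLL had 9.96, 10.44, 9.92 and 10.17. Every starved fish lay below every fed fish, although the lowest fed fish, MHL fish 4, was only slightly above starved fish 2. The share of all sequences whose groups separated in this way was not counted, here or in the comparisons below. The starved mean was 9.45 ± 0.22 (SD, n = 4) and the means of the fed groups were 10.33 ± 0.34 (LLH), 10.21 ± 0.34 (MHL) and 10.12 ± 0.24 (HLL; SD, n = 4 each).

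The tests are those of limma, fitted to every sequence of the array, with Benjamini-Hochberg adjustment over the whole array. PKL fell in the liver of starved fish by 0.80 on the log2 scale against the mean of the 3 diets (SE 0.14, adjusted P value 0.000685), which is 1.75-fold lower (95% confidence interval 1.42 to 2.15). In this comparison 29.1% of all sequences were called. Against LLH it fell by 0.89 (SE 0.17, adjusted P value 0.00182, 1.86-fold lower; 22.8% of all sequences called). Against MHL, which shared no array with starved fish, it fell by 0.81 (SE 0.17, adjusted P value 0.00425, 1.76-fold lower; 23.4% called). Against HLL it fell by 0.71 (SE 0.17, adjusted P value 0.00731, 1.63-fold lower; 25.5% called). All these comparisons use the same 4 starved fish. The call against HLL was lost without the array of uncertain label (−0.57, adjusted P value 0.0605) and with median centring in place of loess (−0.41, adjusted P value 0.0531). The calls against LLH, MHL and the mean of the diets were kept under both. In bulk tissue, fewer cells of a type and less RNA per cell cannot be told apart.

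**Figure D2:**
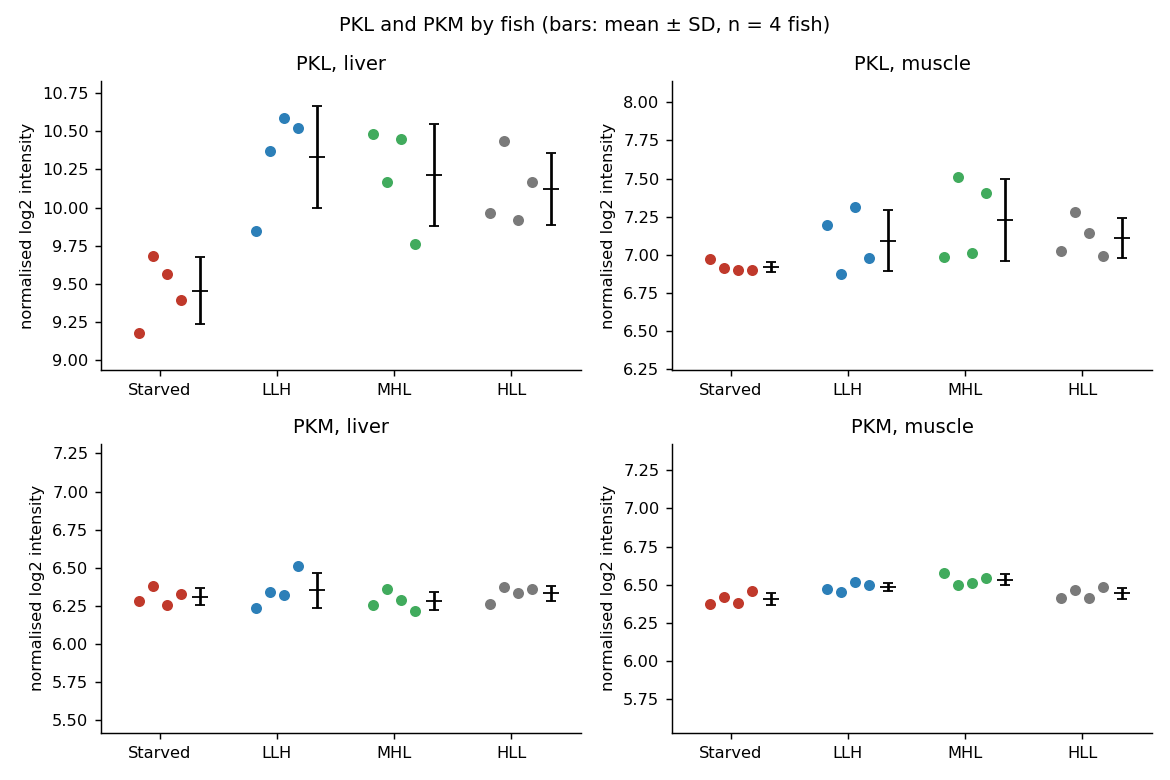
Normalised log2 intensity of PKL (top) and PKM (bottom) in liver (left) and muscle (right), 1 point per fish, with the mean ± SD of the 4 fish of each group beside the points; all panels span the same number of log2 units. In the liver the starved fish (9.17 to 9.68) lay below all fed fish for PKL, while the groups overlapped for PKM.

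The 2 PKL probes gave the same picture in the liver. Probe 1 was 0.81 lower in starved fish than in the mean of the diets (SE 0.13, adjusted P value 0.000507) and probe 2 was 0.80 lower (SE 0.14, adjusted P value 0.000943), each fitted among all probes. Each probe was called against each diet. The difference between the probes was nearly the same in every liver, 0.38 ± 0.04 on the log2 scale over 16 fish (SD; 0.30 to 0.45).

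The ratios within single arrays, which do not depend on scaling between arrays, were also lower for starved fish. On the 4 liver arrays that held a starved fish, all 16 PKL spots had a ratio of starved over fed below 0 on the log2 scale, from −1.24 to −0.67. The mean of the 4 spots was −0.79 for starved fish 1 over HLL fish 1 and −0.76 for starved fish 2 over HLL fish 2. It was −1.03 for starved fish 3 over LLH fish 3 and −1.13 for starved fish 4 over LLH fish 4. The arrays of LLH fish thus had the larger differences, but the difference between diets, described next, was not called. On the same arrays 10 of the 16 PKM spots had a ratio below 0, between −0.28 and 0.10.

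**Figure D3:**
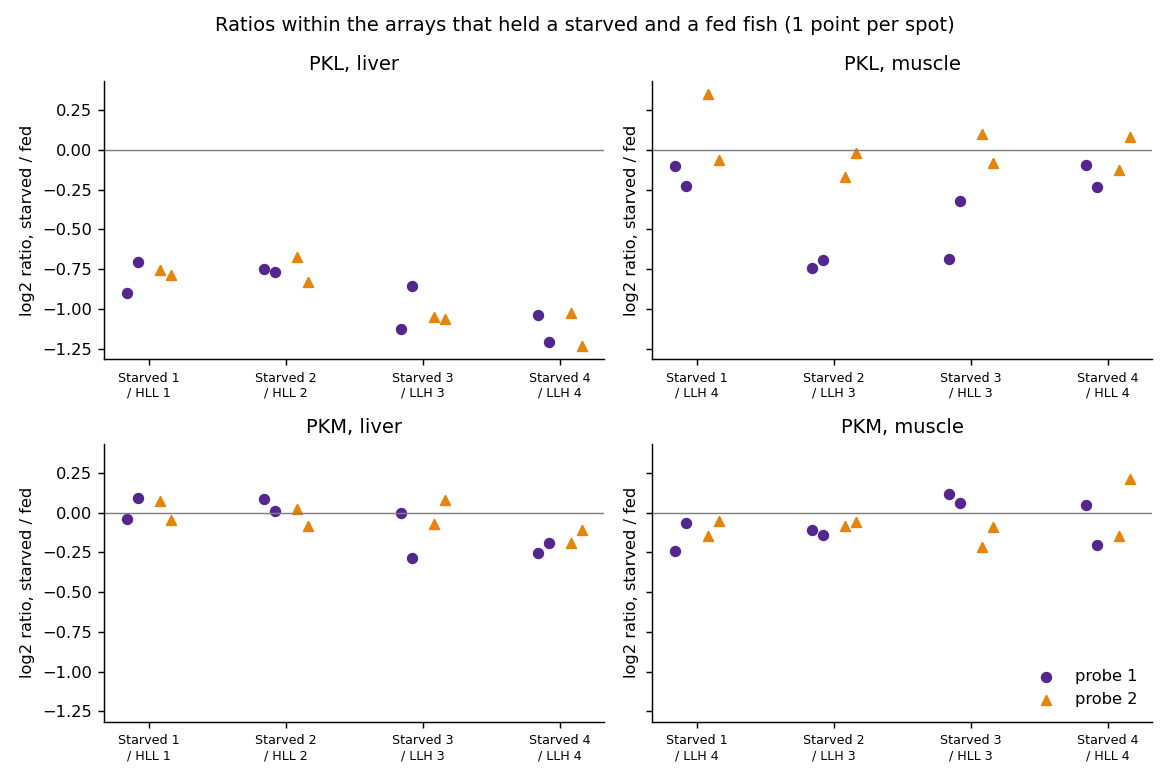
Log2 ratio of the starved over the fed fish within each array that held a starved fish, 1 point per spot (2 spots of each probe), for PKL (top) and PKM (bottom) in liver (left) and muscle (right). All 16 PKL spots lay between −1.24 and −0.67 in the liver; in the muscle probe 1 lay below 0 on every array and probe 2 on both sides of 0.

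PKL did not pass the test between any of the diets in the liver. LLH minus MHL was 0.08 (95% confidence interval −0.29 to 0.44), LLH minus HLL was 0.19 (−0.19 to 0.56) and MHL minus HLL was 0.11 (−0.26 to 0.47), with adjusted P values of 0.95, 0.699 and 0.846 (limma, n = 4 fish per group). The largest difference within these intervals was 0.56, for LLH minus HLL. Over all sequences few were called in these comparisons, 0.00396% for LLH against MHL, 2.19% for LLH against HLL and 1.56% for MHL against HLL. Fish on 1 diet differed by more than the diet means did. On 1 array the LLH fish had 0.64 less PKL signal than the MHL fish (LLH fish 1 and MHL fish 1), and on the other such array the LLH fish had 0.21 more (LLH fish 2 and MHL fish 2). The arrays of MHL over HLL fish gave −0.41 (fish 4 of both groups) and 0.53 (fish 3 of both groups).

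PKM, the sequence named for the muscle type, was not called in any liver comparison. It had 6.28, 6.38, 6.25 and 6.33 on the log2 intensity scale in starved fish, against 6.24 to 6.51 in LLH, 6.22 to 6.36 in MHL and 6.26 to 6.37 in HLL fish. The groups overlapped, and LLH fish 4 was the highest of all. Starved minus fed was −0.02 (95% confidence interval −0.11 to 0.08, adjusted P value 0.825). Since its probe 2 was not well above background in any starved, MHL or HLL liver, only probe 1 measured PKM there (−0.05, adjusted P value 0.558), and no fold is given for probe 2. Within the same fish, log2 PKL minus log2 PKM was 2.89 to 3.31 in starved and 3.54 to 4.27 in fed livers, a quantity whose size depends on the probes and is read only between groups. It was 0.76 lower in starved fish. With PKM close to the background, this repeats the PKL difference and is no measure of a change between the isozymes.

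**Figure D4:**
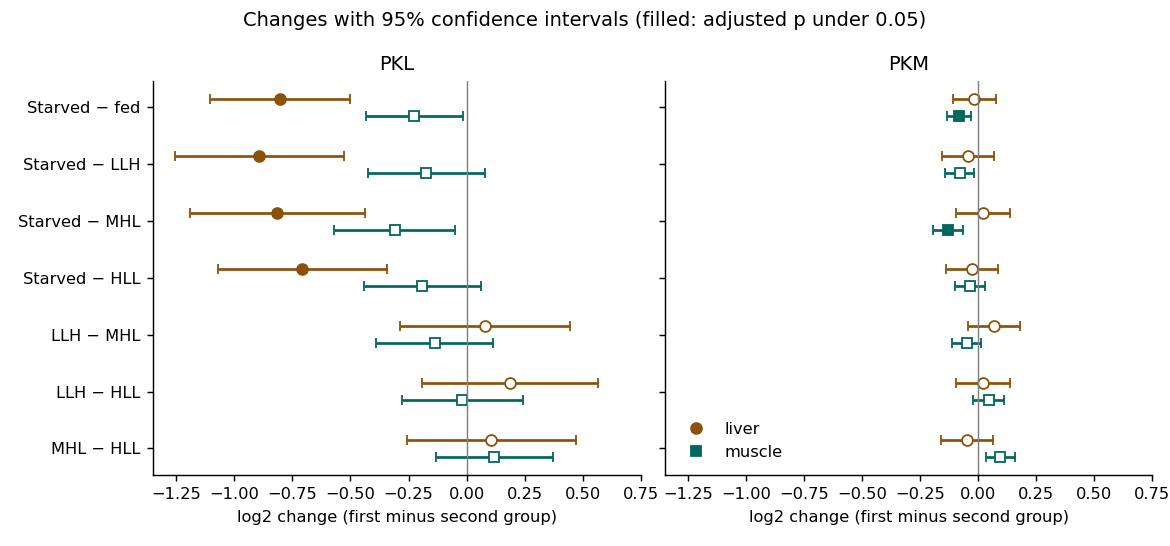
Log2 change of PKL (left) and PKM (right) in each comparison, first minus second group, with 95% confidence intervals, circles for liver and squares for muscle; filled symbols had an adjusted P value under 0.05. PKL in the liver was called against each diet (−0.89 to −0.71) and between no diets, and PKM in the muscle was called against MHL (−0.13) and the mean of the diets (−0.08).

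In the muscle PKL was lowest in starved fish on average, but no comparison passed the threshold. PKL in the muscle had 6.97, 6.91, 6.90 and 6.90 in starved fish, 7.20, 6.87, 7.32 and 6.98 in LLH fish, 6.98, 7.51, 7.01 and 7.40 in MHL fish and 7.02, 7.28, 7.14 and 6.99 in HLL fish. The starved fish lay close together (SD 0.04, n = 4) and below every MHL and HLL fish, the nearest of which were hardly higher, while LLH fish 2 was the lowest of all 16. Starved minus fed was −0.22 (SE 0.10, 95% confidence interval −0.43 to −0.02, unadjusted p = 0.0365 from limma, adjusted P value 0.0884; 36.6% of all sequences called). Against LLH the difference was −0.17 (adjusted P value 0.342; 27.8% called), against MHL −0.31 (adjusted P value 0.0707; 30.7% called) and against HLL −0.19 (adjusted P value 0.247; 34.3% called). Leaving out MHL fish 1 brought the adjusted P value for starved minus fed to 0.0474 and that against MHL to 0.0308. Leaving out MHL fish 3 brought the adjusted P value against MHL to 0.0499. Of the 16 fits with 1 fish left out, 15 left starved minus fed uncalled and 14 left starved minus MHL uncalled. In these fits the adjusted P values rose to 0.199 for starved minus fed and to 0.209 against MHL.

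The PKL probes disagreed in the muscle, and the mean over them hides this. On probe 1, which was above background in every muscle reading, starved fish had 7.49, 7.49, 7.36 and 7.48. Fish fed LLH had 8.0, 7.44, 8.20 and 7.66, fish fed MHL had 7.48, 8.62, 7.63 and 8.47, and fish fed HLL had 7.67, 8.10, 7.86 and 7.65. Starved fish were thus low and alike, and fed fish were spread over more than 1 log2 unit, with MHL fish 2 and 4 highest and with LLH fish 2 and MHL fish 1 at the level of the starved fish. Starved minus fed on probe 1 was −0.45 (SE 0.18, adjusted P value 0.0815). All 8 ratios of starved over fed on its spots were below 0, from −0.74 to −0.09. These are repeated spots on only 4 arrays, with 1 starved fish each. The share of all probes with every ratio below 0 was not counted in either tissue. On probe 2 all muscles lay between 6.30 and 6.49, close to its background, and starved minus fed was −0.00 (SE 0.03, adjusted P value 0.954). The difference between the probes, 0.93 to 2.21 over the 16 muscles, was not constant as it was in the liver. What else either probe can bind was not tested, because probe sequences were not analysed here.

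**Figure D5:**
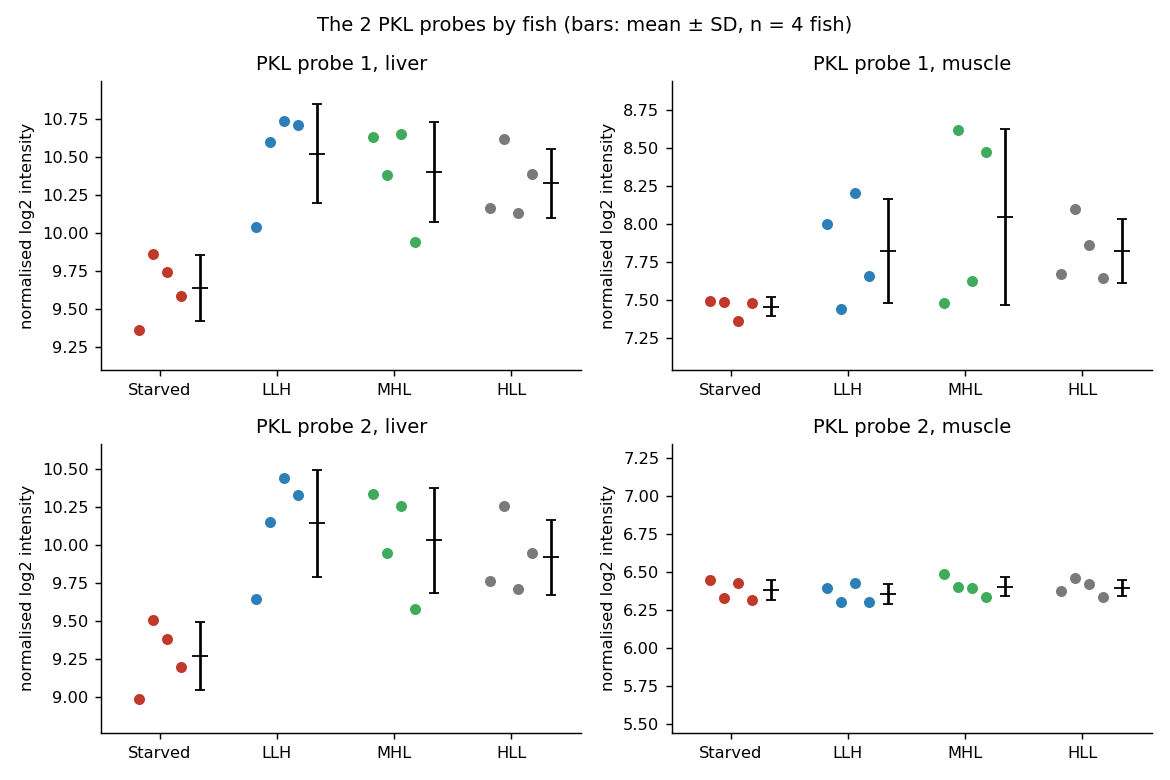
Normalised log2 intensity of PKL probe 1 (top) and probe 2 (bottom) in liver (left) and muscle (right), 1 point per fish with the mean ± SD of the 4 fish of each group; all panels span the same number of log2 units. The probes gave the same pattern in the liver, while in the muscle probe 1 ran from 7.36 to 8.62 and probe 2 stayed between 6.30 and 6.49.

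No diet comparison was called for PKL in the muscle. LLH minus MHL was −0.14 (95% confidence interval −0.39 to 0.11), LLH minus HLL −0.02 (−0.28 to 0.24) and MHL minus HLL 0.12 (−0.13 to 0.37). These comparisons called 0%, 0.238% and 0.0159% of all sequences by limma, and the first of them had 1555 sequences with an unadjusted p under 0.05 among 25222.

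PKM was called lower in the muscle of starved fish against MHL and against the mean of the diets. Its dim probes leave the amount uncertain, and both calls were lost under some of the alternatives. PKM in the muscle had 6.37, 6.42, 6.38 and 6.46 in starved fish, 6.47, 6.45, 6.52 and 6.50 in LLH fish, 6.58, 6.50, 6.51 and 6.55 in MHL fish and 6.41, 6.46, 6.41 and 6.48 in HLL fish. Starved fish lay below all MHL fish and overlapped with LLH and HLL fish. The fall was 0.08 against the mean of the diets (SE 0.02, adjusted P value 0.0167, 1.06-fold lower; 36.6% of all sequences called). Against MHL the fall was 0.13 (SE 0.03, adjusted P value 0.00513, 1.09-fold lower; 30.7% called). It was not called against LLH (−0.08, adjusted P value 0.0586) or HLL (−0.04, adjusted P value 0.414), although without starved fish 4 it was called against LLH (−0.098, adjusted P value 0.0294). The size depended on the handling of the background, since the change against all diets together was −0.19 without an offset (adjusted P value 0.0985) and −0.55 with the scanner's processed signals (0.00967). Against MHL it was −0.73 with processed signals (adjusted P value 0.00915). On probe 2, mostly not above background, neither was called. With the log ratios, the authors' ratios or no normalisation between arrays both calls were lost, and the call against the mean of the diets was also lost without starved fish 1 (adjusted P value 0.0801) or starved fish 3 (0.0700). MHL minus HLL was 0.09 (unadjusted p = 0.00658 from limma, adjusted P value 0.277), and no diet comparison was called. The quantity log2 PKL minus log2 PKM within a fish was 0.44 to 0.60 in starved and 0.40 to 1.01 in fed muscles, with the same limit.

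For the comparison of tissues, all 16 arrays were normalised together, and the values of this scale differ slightly from those above. Liver and muscle samples were fitted as separate fish, since the labels do not say whether a number is the same fish in both. A fit with same-numbered fish as a block across tissues is given at the end. PKL signal was higher in the liver than in the muscle in both states. Among starved fish it ranged from 9.02 to 9.54 in the liver and from 6.95 to 7.02 in the muscle, a difference of 2.31 (SE 0.16, 4.97-fold, adjusted P value 1.21e-12; 64.9% of all sequences called). Among fed fish it ranged from 9.61 to 10.44 in the liver and from 6.92 to 7.58 in the muscle, a difference of 2.88 (SE 0.10, 7.38-fold, adjusted P value 9.1e-20; 73.5% called). The size is not settled. On probe 1, above background in both tissues, it was 3.73-fold in starved and 4.76-fold in fed fish, and no fold is given for probe 2, which was near background in the muscle. With the scanner's processed signals and both probes it was 12.8-fold in starved and 17.7-fold in fed fish. These are differences of arrays on 2 slides as much as of tissues.

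The starvation effect on PKL was more negative in the liver than in the muscle by 0.57 on the log2 scale (SE 0.18, 95% confidence interval −0.95 to −0.19, adjusted P value 0.015; 37.5% of all sequences called). This mean over the probes includes probe 2, which was near background in the muscle and could hardly register a fall there, so that its difference of −0.79 (adjusted P value 0.000471) is close to its liver change alone. On probe 1, the only PKL probe above background in both tissues, the difference was −0.35 and was not called (95% confidence interval −0.84 to 0.14, adjusted P value 0.297). Its median signal minus local background was 152 in the muscle and 1142.75 in the liver, so the offset of 50 shrinks its muscle change more. How far this affects the difference on probe 1 was not tested. The call was also lost without starved liver fish 1 (adjusted P value 0.0597), without the array of uncertain label (0.0605), and with processed signals, median centring or the authors' ratios.

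PKM was lower in the liver than in the muscle among fed fish, but both values lay close to the background. Among starved fish liver minus muscle was −0.07 (6.28 to 6.39 in the liver and 6.36 to 6.46 in the muscle; adjusted P value 0.128), and among fed fish it was −0.14 (6.24 to 6.52 in the liver and 6.40 to 6.58 in the muscle; adjusted P value 1.71e-05). With processed signals the difference among fed fish was −0.70 (adjusted P value 3.13e-05), and no fold is given. The starvation effect on PKM did not pass the test of a difference between the tissues (0.07, 95% confidence interval −0.03 to 0.16, adjusted P value 0.302).

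The other sequences that the files list by gene symbol are enzymes next to pyruvate kinase in metabolism. The alanine aminotransferases cALT1, cALT2 and mALT interconvert pyruvate and alanine, in the cytosol and the mitochondrion by their names. The acetyl-CoA carboxylases ACC1tv1, ACC1tv2 and ACC2 make malonyl-CoA, the building unit of fatty acid synthesis and an inhibitor of fatty acid entry into mitochondria. In the liver 5 of these 6 were called lower in starved fish than in the mean of the diets, and none was called higher (29.1% of all sequences called). Against single diets, 5 were called lower against HLL (25.5% called), 3 against LLH (22.8% called) and 2 against MHL (23.4% called). ACC1tv1 and ACC2 were called against neither LLH nor MHL. Against the mean of the diets, the mitochondrial mALT was 0.23 higher and was not called (adjusted P value 0.224). The median change of the 6 was −0.45, against −0.00 over all sequences. The 6 may not be separate measures, since cALT1 and cALT2 gave nearly equal changes in the liver and ACC1 is listed as 2 variants. Whether their probes bind the same transcripts was not tested. The cytosolic aminotransferases had the larger changes, −1.24 for cALT1 and −1.26 for cALT2 (adjusted P values 0.00019 and 0.000213), and ACC1tv2 fell by 0.65 (adjusted P value 0.000403). The changes of ACC1tv1 and ACC2 were smaller, −0.26 and −0.15 (adjusted P values 0.00121 and 0.0216). The PKL change of −0.80 lay between those of ACC1tv2 and cALT1, which was not tested as a likeness. Between diets 4 of the 6 were called lower with LLH than with HLL (2.19% of all sequences called). With MHL against HLL 2 were called lower, the ACC1 variants (1.56% called). There cALT1 and cALT2 were lower by 0.82 and 0.83 without being called (adjusted P values 0.0861 and 0.0909), and mALT was 0.17 higher, also not called. The counts of both contrasts changed with the array of uncertain label. LLH against HLL called 553 of 25225 sequences, 220 without that array and 1 with it taken as LLH. MHL against HLL called 394, 160 and 54 in the same order. The 6 were not refitted in these ways, so whether their calls hold is not known. Whether PKL differed from these sequences between diets was not tested. In the muscle, where 36.6% of all sequences were called, 1 of the 6 was called, mALT, which was 2.15 higher in starved than in fed fish (adjusted P value 2.68e-09), and the median change was −0.01. How far the probes of the 6 lay above background is not given for either tissue. A change near 0 is therefore not read as a stable level.

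Among the 16471 sequences well above background in at least 12 of the 16 liver channels, those most like PKL over the 16 fish were IFXJFUR01EMUPE (Pearson r = 0.958) and isotig08165 (r = 0.936). The 16 values share arrays in pairs and include both starved and fed fish. For PKM in the muscle, with its range of 6.37 to 6.58, the highest correlations over 16 fish were 0.831 (isotig15594) and 0.828 (isotig04463) among 16391 sequences. In both tissues these values were picked as the highest of so many, and whether they exceed what such picking gives was not tested.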

How the data were processed

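Agilent Feature Extraction 10.7 output was deposited by the authors for every array. As deposited, it gives raw median intensities of spots and their surroundings in both dyes, and intensities processed by that software. The deposited log10 ratio sets the processed Cy5 signal over that of Cy3. A second deposited table holds the authors' normalised log2 ratios (Cy5 over Cy3, 1 per probe), whose rows were matched by reversed feature number (r of 0.80 to 0.91 with the scanner ratios). Scanner flags, deposited as other values of 0 or 1, marked outliers and spots well above background.

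Calculations were made in R 4.3.3 (limma 3.58.1). Median intensities were corrected by normexp (offset 50) on all spots, and 1319 control spots were left out. Loess normalisation followed, outlier spots were then set to missing, and Aquantile normalisation came last. Spots and then probes were averaged on the log2 scale. Group and dye were fitted to the separate channels, with the array as a random block. Tests were two-sided, with P values adjusted (Benjamini-Hochberg) over every sequence tested (25225 in the liver, 25222 in the muscle and in the joint fit) and a threshold of 0.05. The fit was tested on simulated data. Members, gene lists and alternatives were chosen with earlier results of these data known. The named sequences were PKL, PKM, the others with a gene symbol, and the 2 most correlated with PKL in liver and with PKM in muscle. Alternatives covered the background, normalisation, model, filter, probes, the array of uncertain label, the authors' ratios and each fish left out. Planned lists of glycolysis and marker genes could not be used without annotation. The labels give separate fish per group, and their number limits the precision.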

Additional observations from a re-analysis of the deposited data

Results flagged for a closer look

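The starvation effect on PKL differed between liver and muscle by −0.57 on the log2 scale (liver minus muscle, limma, adjusted P value 0.015), a called difference between tissues. Probe 2 was near background in the muscle (18 of 32 readings well above it, at a median of 1.26 times the local background), and on probe 1, above background in both tissues, the difference was −0.35 and was not called (adjusted P value 0.297). Among the 16 groups of 4 fish (2 sequences, 4 groups and 2 tissues), no fish stood far enough from the others of its group to pass Dixon's test at the 95% level.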

How the results depend on the processing

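PKL in the liver kept its calls against LLH, MHL and the mean of the diets in all 18 alternatives and with each of 16 fish left out. These alternatives include the exact permutation test over fish, whose P values were not adjusted over sequences. Starved minus fed ran from −1.03 (the authors' ratios) to −0.54 (median centring), and from −0.93 to −0.67 with a fish left out. Against HLL the call was lost with median centring (−0.41) and without the array of uncertain label (−0.57). PKL liver minus muscle kept its call in all 16 alternatives, but its size ran from 3.73-fold (brightest probe) to 12.8-fold (processed signals) in starved and from 4.76-fold to 17.7-fold in fed fish. With median centring all sequences had medians for starved minus fed of −0.04 (liver) and −0.03 (muscle). Without scaling between arrays the median of liver minus muscle was −0.12 in starved and −0.07 in fed fish.

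The difference of the PKL starvation effect between tissues was no longer called with processed signals (−0.47), median centring (−0.34), the brightest probe (−0.35), probe 1 alone (−0.35), the authors' ratios (−0.65) or without the array of uncertain label (−0.47), and ran from −0.67 to −0.46 with a fish left out. For PKL in the muscle the exact permutation test over fish, not adjusted over sequences, passed against HLL (−0.19), MHL (−0.31) and the mean of the diets (−0.22). Against HLL and MHL its p was 0.0286, the smallest that 4 against 4 fish allow. Any 2 such groups without overlap reach it, so these 2 passes only repeat the separation of the fish given above. With a fish left out, PKL in the muscle ran from −0.39 to −0.22 against MHL and from −0.25 to −0.19 against the mean of the diets.

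The PKM calls in the muscle were lost with log ratios (−0.15 against MHL, −0.10 against the mean of the diets), no normalisation between arrays (−0.13 and −0.083), probe 2 alone (−0.11 and −0.067) and the authors' ratios (−0.39 and −0.27). The call against the mean of the diets was also lost with a normexp offset of 0 (−0.19) and the filter on dim probes (−0.082), and ran from −0.10 to −0.067 with a fish left out. PKM in the muscle passed against LLH with no background correction (−0.15), processed signals (−0.61), median centring (−0.10) and quantile normalisation (−0.091), and ran from −0.098 (without starved fish 4, called, adjusted P value 0.0294) to −0.064 with a fish left out. MHL minus HLL passed in the permutation test (0.091), also at the smallest p of that test, 0.0286. PKM liver minus muscle passed in starved fish with the brightest probe (−0.12) and probe 1 alone (−0.12), and was lost in fed fish with no normalisation between arrays (−0.15).

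Uncalled values near 0 changed sign. In the liver these were PKL LLH minus MHL with log ratios (−0.10) and the authors' ratios (−0.10), and from −0.051 to 0.23 with a fish left out. PKM starved minus MHL turned with log ratios (−0.019), the filter (−0.015), the brightest probe (−0.016), probe 1 alone (−0.016) and the authors' ratios (−0.025), starved minus HLL with processed signals (0.0059), starved minus fed with processed signals (0.014) and probe 2 alone (0.014), starved minus LLH with probe 2 alone (0.0025), and LLH minus HLL with probe 2 alone (−0.021) and with the uncertain array as LLH (−0.012). With a fish left out, PKM in the liver ran from −0.0098 to 0.057 for starved minus MHL, −0.077 to 0.010 for starved minus LLH, −0.048 to 0.0068 for starved minus fed and −0.032 to 0.054 for LLH minus HLL. In the muscle PKL starved minus LLH turned with probe 2 alone (0.024), LLH minus HLL with quantile normalisation (0.0040) and the authors' ratios (0.032), running from −0.10 to 0.053 with a fish left out, and the within-fish shift with processed signals (0.10). For these changes the cause was not tested. Where a fish was left out, its value and the number of fish changed together.

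Fish numbers were not taken to pair the samples. Deviations of same-numbered fish correlated between −0.26 and 0.48, and those of differently numbered fish between −0.49 and 0.36. Most like a fish of their own number were 3 of 16 livers and 5 of 16 muscles. Every group held 1 fish of each of 4 numbers, so 1 in 4 of the fish compared with each shared its number. Both counts lie near that share. In the liver the 2 fish of every array had the same number, so that number and array are partly the same there. These values do not settle whether the numbers pair fish. With the number as a replicate block, PKL starved minus fed was −0.79 in the liver (adjusted P value 0.00219) and no call of PKL or PKM changed, while 6823 liver sequences were called in place of 7336. With same-numbered fish as a replicate block across tissues, the tissue difference of the PKL effect was −0.57 (adjusted P value 0.0302). Slide as a block could not be fitted, since each tissue lay on 1 slide. PKM and, in the muscle, PKL probe 2 are limited by signals close to the background.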
